A study of Mus musculus with 82 samples.

Results

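Solitary Adnp peaks at protein-coding gene ends are places where the chromatin protein Adnp was found beside or on the end of a gene, with no second Adnp peak in the neighbourhood. They were taken from the authors' list of Adnp peaks by position alone: any part of the peak lay within 1 kb of either end of a protein-coding gene on chromosomes 1 to 19, and the gap to every other listed Adnp peak was more than 10 kb. Of 14903 Adnp peaks on these chromosomes (15026 listed in all), 621 met both conditions. They touched the end windows of 667 genes. A further 509 peaks lay at such ends but had a neighbour within 10 kb, 7631 were solitary but lay elsewhere, and 6142 were neither.

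The list comes from ChIP-seq, which sequences the DNA fragments bound by a protein, in mouse embryonic stem cells of a hybrid 129-C57BL/6 background grown in 2i medium with LIF. It is tied to 3 replicates of otherwise wild-type, untreated cells in which Adnp carries a FlagAvi tag, captured on streptavidin beads. A second list, tied to 3 replicates of cells with FlagAvi-tagged Cbx3 (the gene of HP1γ) and 3 replicates of such cells that also lack Adnp, holds 2047 HP1γ peaks that the authors selected for lacking the Adnp motif. The names of its peaks point to the knockout cells, so it is not known here in which genotype an HP1γ peak was seen. Each list is one pooled set of peaks. No value below therefore has an error between replicates, no test across samples could be made, and the 95% intervals cover counting error only. Sequencing depth is unknown, and no expression values were used, so the cells were not checked against marker genes.

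Adnp is a homeodomain and zinc finger protein that joins the remodeller Chd4 and HP1 proteins in the ChAHP complex. The complex binds DNA by sequence, and in this way brings HP1, better known as the reader of methylated histone H3 lysine 9 in heterochromatin, to places without that mark. The start of a gene carries its promoter, where transcription is set up, while the other end carries the signals for cleavage and polyadenylation of the RNA. Starts and other ends below are the outer limits of a gene as RefSeq gives them. The promoters listed for a gene can lie elsewhere, so a peak at a start need not be at a listed promoter.

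The sequences below show what lies under some of the peaks that fall on a promoter. Each is the strand of the gene, 5′ to 3′, from the GRCm38.p6 promoter table of RefSeq, and ends before the gene's start. Capitals mark the word CGCCCNCT, the beginning of the Adnp motif as background knowledge gives it, or its reverse complement. The core of the motif of CTCF, an architectural protein of chromatin, holds the same letters. The first 6 belong to the highest-scoring members with the word both inside the peak and before the start, and Sycp2 was added after its values were seen.

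Zpr1, chr9:46272867-46272934, plus strand: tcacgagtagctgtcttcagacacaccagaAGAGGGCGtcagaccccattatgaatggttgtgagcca
Bspry, chr4:62479989-62480056, plus strand: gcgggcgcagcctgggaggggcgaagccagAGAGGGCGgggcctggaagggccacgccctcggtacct
Prss50, chr9:110857879-110857946, plus strand: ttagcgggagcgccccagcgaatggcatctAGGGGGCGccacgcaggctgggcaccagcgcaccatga
Cpne2, chr8:94532948-94533015, plus strand: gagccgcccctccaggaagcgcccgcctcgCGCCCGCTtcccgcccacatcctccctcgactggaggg
2900026A02Rik, chr5:113221366-113221433, minus strand: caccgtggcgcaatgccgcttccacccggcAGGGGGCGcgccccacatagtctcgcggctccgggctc
Arhgef16, chr4:154299896-154299943, minus strand: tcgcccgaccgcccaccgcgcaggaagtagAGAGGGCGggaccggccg
Sycp2, chr2:178407718-178407785, minus strand: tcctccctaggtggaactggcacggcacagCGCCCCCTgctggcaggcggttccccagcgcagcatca

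The peaks behind these sequences ranged widely in strength. The score is a value the authors gave each peak, of a kind no source used here states, and it is used only to compare peaks within the list. It was 162 for the peak at Zpr1, 138 at Bspry, 120 at Prss50, 117 at Cpne2, 86.4 at 2900026A02Rik, 32.4 at Arhgef16 and 27.4 at Sycp2. The word lay nearest to the start at Arhgef16, from 18 to 11 bases before it, and farthest at Zpr1, from 167 to 160 bases before it. At Zpr1 and Sycp2 the word was also followed, after 2 further bases on its own strand, by the letters TG, which lengthens the match to the motif.

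Members were more often at the start of a gene than at its other end. The strand, which tells these ends apart, was known for 16457 of the 20560 protein-coding genes and thereby for 494 of the 621 members. It was known for none of the 511 genes of chromosome 18, so its 15 members enter neither this split nor the promoter counts. Of these 494, the nearest end was a start for 328 (66.4%, 95% Wilson interval 62.1% to 70.4%) and the other end for 166. Counted by genes, 345 starts (2.1% of 16457 genes, 1.89% to 2.33%) and 196 other ends (1.19%, 1.04% to 1.37%) had a solitary peak within 1 kb. The windows are of equal size, so starts were hit 1.76 times as often. Peaks with neighbours showed much the same split, with 268 of 425 nearest to a start (63.1%, 58.4% to 67.5%) and a ratio of 1.70. The difference between the 2 classes was not tested.

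On both sides the peaks lay mostly outside the gene. Of the 328 members at starts, 222 (67.7%, 62.4% to 72.5%) had their centre upstream of the start. The fullest stretch, with 61 members, ran from 500 to 250 bp upstream, and the first 250 bp inside the gene held 27. At other ends 115 of 166 members (69.3%, 61.9% to 75.8%) had their centre past the end of the gene, and 28 lay from 250 to 500 bp beyond it. In peaks with neighbours the shares were 69.0% upstream of starts and 74.5% past other ends, within the intervals of the members. A peak covered the end itself in 118 of all 621 cases (16.1% to 22.3%). This was so for 75 of the 328 at starts (22.9%, 18.7% to 27.7%) and for 16 of the 166 at other ends (9.64%, 6.02% to 15.1%). In all, 299 members (48.1%) overlapped some protein-coding gene.

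**Figure D1:**
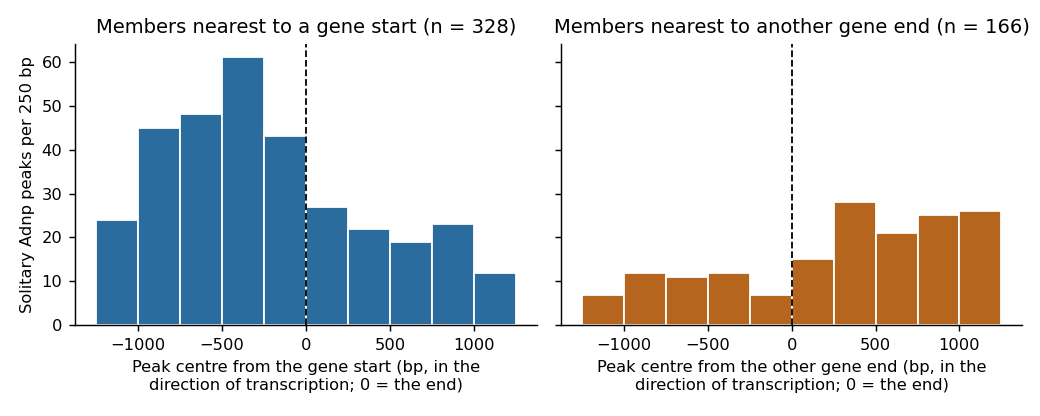
Number of solitary Adnp peaks per 250 bp by the distance of the peak centre from the nearest gene end of known strand, for 328 members nearest to a gene start (left) and 166 nearest to another gene end (right); negative values lie before the end in the direction of transcription. The bars are highest from 500 to 250 bp upstream of starts (61 members), and past the gene at other ends. The outermost bars, with centres more than 1 kb away, hold only peaks wide enough to reach the window, and 4 members at starts and 2 at other ends lie farther out and are not drawn.

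The member peaks were somewhat wider than solitary peaks elsewhere. Their median width was 416 bp (95% interval of the median 406 to 432, quartiles 343 and 508 bp), against 380 bp (376 to 383) for solitary peaks elsewhere and 396 bp for all 14903 peaks. Peaks with neighbours had medians of 440 bp (426 to 455) at gene ends and 416 bp (410 to 420) elsewhere. Widths of 600 bp or more were found in 84 members (13.5%, 11.1% to 16.4%), in 7.17% of solitary peaks elsewhere (6.61% to 7.77%) and in 14.7% of peaks with neighbours at gene ends (11.9% to 18.1%). A rule that takes any part of a peak favours wide peaks. With classes set by the peak centre, the medians were 414 bp (401 to 432) for 520 solitary peaks at gene ends and 380 bp (378 to 383) for 7732 elsewhere.

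The median score of members was 23.1 (20.9 to 24.8), against 20.7 (20.3 to 21.2) for solitary peaks elsewhere, 23.3 (21.9 to 24.4) for peaks with neighbours at gene ends and 21.2 for all peaks. The quartiles of the members, 14.0 and 36.4, overlapped broadly with those of solitary peaks elsewhere, 13.8 and 32.5. The upper tail was fuller: 89 members (14.3%, 11.8% to 17.3%) scored 54.7 or more, against 687 of 7631 solitary peaks elsewhere (8.38% to 9.67%) and 13.4% of peaks with neighbours at gene ends (10.7% to 16.6%). With members set by the peak centre, the median score of the 520 members was 21.9, and the upper tail was not recounted. With only the higher-scoring part of the list used, the median width of the members was 465.5 bp.

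**Figure D2:**
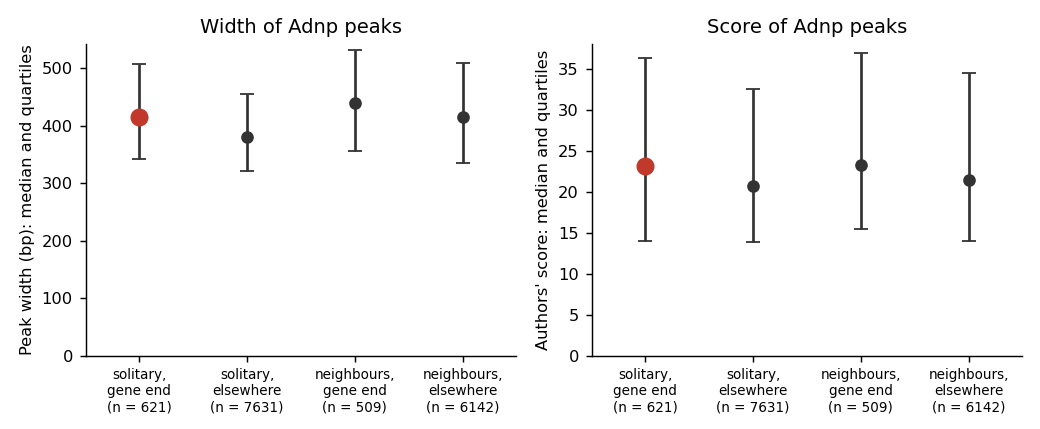
Median (points) and quartiles (bars) of peak width in bp and of the authors' score for 4 classes of Adnp peaks, with the 621 members in red. The members' median width of 416 bp lies above the 380 bp of solitary peaks elsewhere and below the 440 bp of peaks with neighbours at gene ends, while the quartiles of all classes overlap.

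Starts and other ends held peaks of like size. At starts the median width was 425.5 bp, with quartiles of 352 and 518 bp, and the median score 22.0 (13.9 and 38.1). At other ends these were 402 bp (331 and 502) and 24.6 (14.7 and 34.0), and the 127 members of unknown strand 413 bp and 21.2. The order of the medians was thus opposite for width and score, and the quartiles overlapped throughout.

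High-scoring members lay at genes of varied function. The member with the highest score is not described here. On chromosome 2, the peak from 119546848 to 119547365 scored 315 and lay 262 bp from the start of Exd1, whose product takes part in the making of piRNAs in germ cells. The neighbouring start, of the calcineurin-like EF-hand gene Chp1, was 342 bp away. The peak from 55316013 to 55316836 of chromosome 19 scored 200 and covered the starts of Vti1a, a SNARE gene of Golgi and endosome traffic, and of the palmitoyltransferase gene Zdhhc6. Igfbp4, encoding a binding protein of insulin-like growth factors, had a peak with a score of 197 that began 105 bp inside the gene on chromosome 11. The peak of Lrch1, a gene of a leucine-rich repeat protein on chromosome 14, scored 187 and lay 53 bp upstream. It was also the widest member, at 1240 bp.

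Tmem51 on chromosome 4 followed with a score of 166. Its peak covered the start, but overlapped none of the promoter windows described below. The peak at Zpr1, a zinc finger gene on chromosome 9, covered that start with a score of 162 and reached within 585 bp of the other end of Apoa5, an apolipoprotein gene of triglyceride metabolism. At Dnm1l on chromosome 16, which encodes the dynamin of mitochondrial fission, a peak scoring 159 lay 693 bp inside the gene. Itpripl1 on chromosome 2 and Slc35g2 on chromosome 9, with scores of 149 and 148, were the only 2 of these 9 peaks at other ends alone, the first inside and the second beyond the gene.

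At the low end of the scale stood Mael, a piRNA pathway gene of the germ line on chromosome 1, whose peak of 251 bp covered the start with a score of 4.14. Defb36, a defensin gene on chromosome 2, had a score of 4.85 at 6 bp from its start. The peak over the start of Pde5a, the gene of a cyclic GMP phosphodiesterase on chromosome 3, scored 4.95. Hspa9, a mitochondrial chaperone gene of unknown strand here, scored 5.27, and Fem1a 5.88 at its other end. Of these 5 peaks, 2 covered a start.

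The widest members after Lrch1 were at Ccdc71l (1228 bp, score 21.2), Boll (1164 bp, 86.3), Mkrn2 (1124 bp, 125) and Mpdu1 (1036 bp, 20.7). Boll encodes an RNA-binding protein of meiosis, Mkrn2 a ring finger protein and Mpdu1 a factor of glycan synthesis on dolichol. Width and score could part widely, as Ccdc71l and Mkrn2 show. The narrowest members measured 251 bp, the smallest width in the list, which 8 members had, among them those at Cbl, Clpp, Fer1l5, Gfm1 and LOC115488130, with scores of 7.90, 11.8, 9.64, 8.04 and 13.0. Cbl encodes a ubiquitin ligase of receptor signalling, Clpp a mitochondrial protease and Gfm1 a mitochondrial elongation factor.

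**Figure D3:**
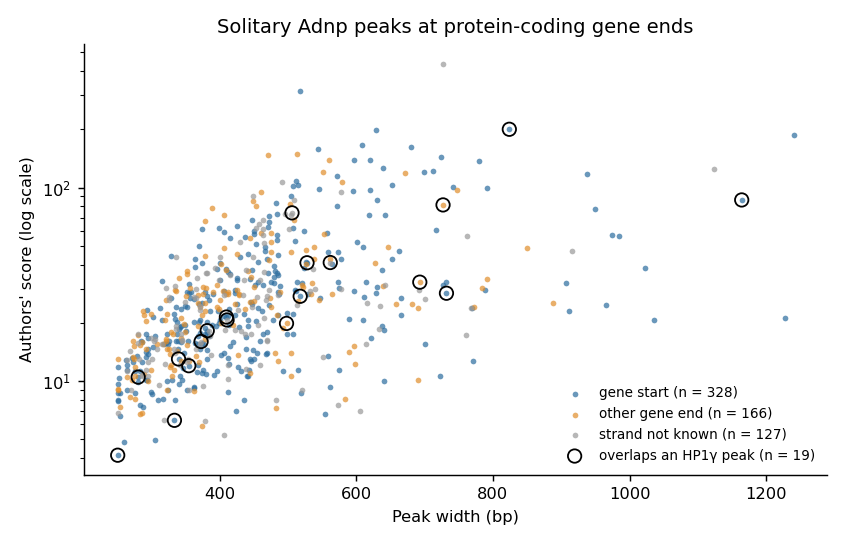
Width in bp and authors' score (log axis) of the 621 members, coloured by the nearest gene end of known strand; rings mark the 19 members that overlap an HP1γ peak. Members at starts (328) and other ends (166) overlap over most of both axes, and the widths of all members run from 251 to 1240 bp.

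A peak could serve the ends of 2 genes at once. This was so for 51 members (8.21%, 6.30% to 10.6%) and for 36 of the 509 peaks with neighbours (7.07%, 5.15% to 9.64%). Close gene ends are common: 6125 of 41120 protein-coding gene ends (14.9%) had an end of another such gene within 1 kb. Among the 676 ends with a member it was 85 (12.6%, 10.3% to 15.3%), so the background lay within the interval. Of the 51, strand was known for both genes in 44. In 13 the genes were bidirectional, taken here as starts on opposite strands whatever the distance between them. The median distance between the starts was 157 bp, and the largest 2352 bp, at Vpreb3 with Gm867. In 15 they ended towards each other, and in 14 the start of one gene lay by the other end of its neighbour. A further 2 joined like ends on the same strand.

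Leaving aside the same-strand pairs, the bidirectional starts had the highest medians of these peaks, with a width of 508 bp and a score of 28.1. In the 15 converging pairs the medians were 378 bp and 21.3, and in the 14 start-to-end pairs 404.5 bp and 25.7. All 51 together had 442 bp and 23.8, against 414.5 bp and 23.1 for the 570 members at 1 gene. These groups are small and no test was made on them. A gene end was covered in 15 of 51 shared members (29.4%, 18.7% to 43.0%) and in 103 of 570 others (18.1%, 15.1% to 21.4%).

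After Exd1 with Chp1 and Vti1a with Zdhhc6, the bidirectional pair with the highest score was Triml1 and Triml2, tripartite motif family genes on chromosome 8, at 60.5. Their starts lie 31 bp apart, and the peak lay inside Triml2. Over the neighbouring ends of Bmp1, a procollagen protease, and the surfactant gene Sftpc on chromosome 14, whose strands were not known here, the score was 95.2. On chromosome 2 a peak with a score of 84.8 covered the common other end of Prn and Prnd, of which Prnd encodes the prion-like protein doppel. Cyp27b1, the gene of the enzyme that activates vitamin D, began 479 bp beyond a peak with a score of 72.5, which lay past the other end of the RNA methyltransferase gene Mettl1. Pcbd2 with Txndc15 on chromosome 13 and Bola1 with Sv2a on chromosome 3 had scores of 50.9 and 49.2, and Tpgs2 with AW554918 on chromosome 18 had 68.0.

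Noncoding genes shared some of these sites too. An lncRNA gene end lay within 1 kb of 64 members (10.3%, 8.15% to 12.9%). It was 7.27% of peaks with neighbours at gene ends (5.32% to 9.86%), 3.67% of solitary peaks elsewhere and 4.37% of all peaks. At starts it was 39 of 328 members (11.9%, 8.82% to 15.8%) and 26 of 268 peaks with neighbours (9.70%, 6.71% to 13.8%). At other ends it was 7 of 166 members (4.22%, 2.06% to 8.45%) and 3 of 157 peaks with neighbours. The same share over all protein-coding gene ends was not counted, so none of these shares is shown to be particular to Adnp peaks. Among the members at starts, the peak over the start of Tmem51 lay 360 bp from the start of the lncRNA gene Tmem51os1.

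The functions of the genes were described with lists chosen by symbol, beside the share of all 20560 protein-coding genes that had a member, 667 or 3.24%. Small GTPase and vesicle traffic genes had 13 of 178 (7.30%, 4.32% to 12.1%), and 11 of these 13 had the peak at the start. After Vti1a the highest scores were 52.3 at Vps25, a subunit of the ESCRT machinery that sorts membrane proteins in endosomes, 38.7 at the syntaxin gene Stx4a and 23.7 at Rab3a, a GTPase of secretory vesicles. The Vps25 peak covered the start but overlapped no promoter window, and the peaks of Stx4a and Rab3a lay 298 and 211 bp upstream. Centrosome and cilium genes had 8 of 115 (6.96%, 3.57% to 13.1%). The traffic and cilium lists alone had intervals wholly above the background, out of many lists compared without correction. Peaks with neighbours were not counted by list, so these shares are not shown to be particular to solitary peaks. Ift46, of intraflagellar transport, had a score of 100.001 inside the gene. Dnah8, an axonemal dynein gene, had 81.3 near its other end, Cfap20 had 63.0 and Cep250, of centrosome cohesion, had 23.2.

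Ribosomal protein and respiratory chain genes had shares of 4.76% to 6.41%, with intervals that all held the background. Mitochondrial ribosomal protein genes had 5 of 78 (2.77% to 14.1%), of which Mrps18a (35.2), Mrpl11 (30.1), Mrpl20 (14.6) and Mrps16 (11.9) scored highest. Respiratory chain and ATP synthase genes had 6 of 97 (2.87% to 12.8%), led by Ndufa7 (58.3) and Ndufs1 (24.4) of complex I, Uqcr11 of complex III (30.4) and Atp5o of ATP synthase (22.1). Cytosolic ribosomal protein genes had 4 of 84 (1.87% to 11.6%): Rpl37a (29.6), Rpl19 (26.1), Rpl8 (18.2) and Rpl14 (9.97). Of these, Ndufa7 was the one above 54.7.

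Ubiquitin ligase genes of the ring and F-box kind had 11 of 233 (4.72%, 2.66% to 8.25%). Fbxo4, an F-box gene on chromosome 15, scored 103 and lay 874 bp inside the gene. Trim47 (62.3), Rnf135 (48.6) and Rnf8 (45.4), a ligase of the DNA damage response, followed. Solute carriers had 14 of 362 (3.87%, 2.32% to 6.39%), led by Slc35g2 (148), Slc52a3, a riboflavin transporter (62.0), Slc44a2 (38.1) and Slc35g1 (32.1). Zinc finger genes had 14 of 457 (3.06%, 1.83% to 5.08%), close to the background. Zfp423 scored 103, and Zfp809, whose product silences retroviral DNA in stem cells, scored 72.3, both with the peak inside the gene near the start. Zfp128 and Zfp988 had 52.1 and 31.2.

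Genes matched by the proteasome symbols, which need not all encode its subunits, had 2 of 50 (Psmg3, 41.0, and Psme1, 29.2). Genes matched by the splicing symbols, which need not all be splicing factors, had 2 of 58 (Lsm10, 97.4, and Sf3a3, 15.6). The tRNA synthetases had 1 of 34 (Tars, 29.0) and DNA repair genes 1 of 47 (Xrcc5, the gene of the Ku80 protein, 59.4). Sf3a3 had a solitary peak at each of its ends. Such small counts do not place these lists above or below the background.

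Large clustered families lacked members. None of 1103 olfactory receptor genes had one, which allows a share of up to 0.272%, and none of 351 vomeronasal receptor genes (up to 0.855%). None of 39 Hox cluster genes had one either (up to 7.69%), a limit above the background of 3.24%. None of the 75 genes matched by the histone symbols had a member (up to 4%, likewise above it), but these symbols leave out some histone genes. One of those, the histone H4 gene H4f16 on chromosome 6, had a peak with a score of 20.6 that lay 713 bp upstream of its start. Among pluripotency genes 2 of 22 had a member, Utf1 (score 32.6, peak 222 bp upstream) and Dppa3 (27.2). Of mesoderm genes it was 1 of 12, Mesp1, a cardiac mesoderm regulator on chromosome 7. Its peak scored 106 and lay inside the gene, which is so short that both ends fell in the window, as happened for 4 members. None of 14 endoderm and 11 neural genes had a member, where counts of 0 allow up to 21.4% and 27.3%.

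**Figure D4:**
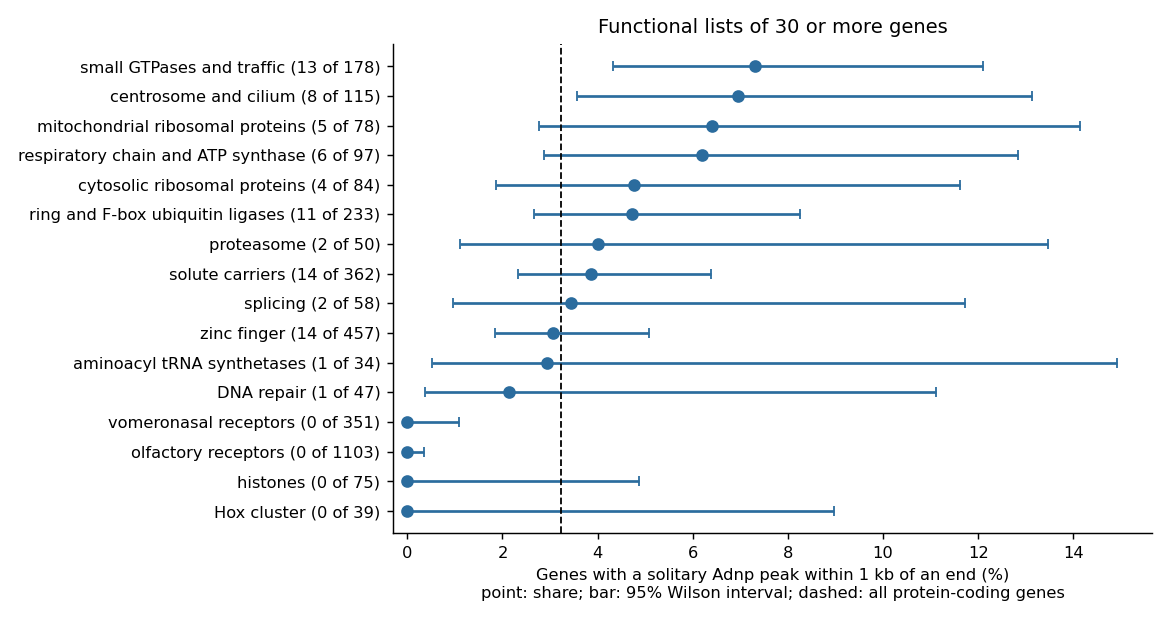
Share of genes with a solitary Adnp peak within 1 kb of an end (points, in %) with 95% Wilson intervals, for 16 functional lists of 30 or more genes; the dashed line marks the 3.24% of all protein-coding genes. Small GTPase and traffic genes lie highest at 7.30%, while olfactory and vomeronasal receptor genes are at 0.

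Some well-studied genes outside these lists had members as well, picked here after their values were seen. The peak at Ctnnb1, the gene of β-catenin on chromosome 9, covered the start with a score of 108. The peak over the start of Kmt2a, a histone H3 lysine 4 methyltransferase gene on the same chromosome, scored 49.6. Gene length did not set these genes apart: the 667 genes had a median length of 17.8 kb (quartiles 7.38 and 41.5) and all protein-coding genes 17.6 kb (5.99 and 45.2). Across chromosomes the members numbered from 1.69 per 100 protein-coding genes on chromosome 13 to 4.79 on chromosome 8, with 4.54 on chromosome 19.

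Peaks of the HP1γ list lay on a small part of the members. This list was selected for lacking the Adnp motif, so the shares do not measure how often HP1γ lies at Adnp peaks. Of the 621, 19 overlapped an HP1γ peak by at least 1 bp (3.06%, 1.97% to 4.73%), against 1.85% of solitary peaks elsewhere (1.57% to 2.18%) and 2.55% of peaks with neighbours at gene ends (1.499% to 4.32%). Within the members the overlap went with the gene end itself. Of 118 members that covered an end, 10 overlapped an HP1γ peak (8.47%, 4.67% to 14.9%), and of the 503 others 9 did (1.79%, 0.944% to 3.37%). Peaks with neighbours gave 5 of 77 (6.49%, 2.81% to 14.3%) and 8 of 432 (1.85%, 0.941% to 3.61%). Members that covered an end were also wider, with a median of 452 bp against 410 bp, and the HP1γ list itself favoured starts, which were the nearest end for 114 of its 152 peaks at gene ends of known strand. The part of either in the overlap was not tested.

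**Figure D5:**
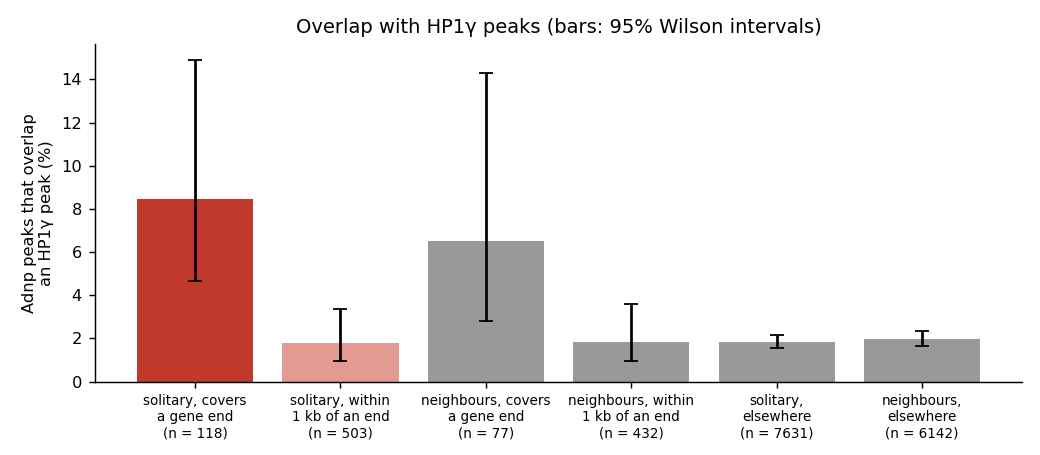
Share of Adnp peaks that overlap an HP1γ peak (bars, in %) with 95% Wilson intervals, for members that cover a gene end or lie within 1 kb of one (red), peaks with neighbours split alike, and peaks elsewhere (grey). Members that cover an end stand at 8.47% and the other members at 1.79%, near the 1.85% of solitary peaks elsewhere. The HP1γ peaks are those of the list selected for lacking the Adnp motif.

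Among the 10 shared sites that covered an end, at Boll the peak at 55362743 to 55363906 on chromosome 1 (score 86.3) held the whole of an HP1γ peak of 460 bp. Tdrd12, a piRNA pathway gene on chromosome 7, had an Adnp score of 40.9 and an overlap of 210 bp. The peak at Sycp2, a gene of the synaptonemal complex on chromosome 2, scored 27.4 and overlapped by 300 bp. The HP1γ peak there ended at 178407679, and the word shown above, from 178407748 to 178407755, lay outside it. Because listed HP1γ peaks were selected for lacking the Adnp motif, this cannot tell how HP1γ and the word are placed. At Mael, the lowest-scoring member, the overlap was 87 bp. The other 6 lay over the shared start of Vti1a and Zdhhc6 and at Atxn1l, Tsnax, Mkrn3, Zfp560 and Magohb, with scores of 28.5, 20.7, 13.0, 12.02 and 10.5 for the last 5. Mkrn3 is an imprinted gene and Magohb encodes a part of the exon junction complex.

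The remaining 9 shared sites lay off the gene end. The highest scores were at Dnah8 (81.3), Chd2, a chromatin remodeller gene (74.0), Incenp, of the chromosomal passenger complex (41.0), Amz1 (32.5) and Tlcd2 (21.4). Distances to the nearest end ran from 109 bp at Trmt10c, a gene of mitochondrial RNase P, to 932 bp at Incenp. Of the 51 peaks shared by 2 genes 1, that of Vti1a and Zdhhc6, overlapped an HP1γ peak, and of the 570 others 18 did (3.16%, 2.01% to 4.94%).

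Member peaks overlapped a listed promoter window, running from 250 bases before to 50 after a start, in 117 cases, with 132 windows of 119 genes (some windows of 1 gene overlap each other). These windows were rich in G and C, with a median GC content of 63.3% and 24 CpG, against 57% and 14 CpG in all 20085 windows of protein-coding genes. The windows under peaks with neighbours had 62.7% and 22 CpG. The word CGCCCNCT, read on both strands, stood in 41 of the 132 windows (31.1%, 23.8% to 39.4%), in 25 of 84 under peaks with neighbours (29.8%, 21.0% to 40.2%) and in 16.5% of all windows. In 31 of the 132 the word lay inside the part covered by the peak. At Mapk6 the peak lay 305 bp inside the gene, yet it held a whole promoter window. Of all members, 49 were listed after the part of the Adnp list that is sorted by position. The word was not counted apart for them, so how far its share rests on these peaks is not known here.

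Because the word holds a CpG, its share was also counted at both sides of the overall median of 14 CpG, a split chosen after the data were seen. In windows with 14 or more it stood in 35 of 106 under members (33.0%, 24.8% to 42.4%) and in 28.2% of all, so the interval held the overall share. Below 14 it was 6 of 26 (23.1%, 11.03% to 42.1%) under members, 4 of 15 under peaks with neighbours (26.7%, 10.9% to 52.0%) and 4.75% of all. This side is not matched for CpG. The lower quartile was 4 CpG over all windows and 14.75 over member windows, so many of all windows below 14 hold very few CpG. The part of this in the difference was not tested. The longer form, also added after the data were seen and made of CGCCCNCT with TG after 2 further bases, was found in 6 of 132 member windows (4.55%, 2.10% to 9.56%), 1 of 84 and 1.21% of all. The member windows were those of Zpr1, Sycp2 and Defb36, and of Dapk2, Nsfl1c and Cebpa, whose peaks were listed after the sorted part.

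Words of common promoter factors were counted alike on both strands. GCGCATGC, of NRF1, stood in 15 of 132 windows under members (11.4%, 7.01% to 17.9%) and 3.55% of all. In windows with 14 or more CpG it was 11.3% (6.596% to 18.8%) against 6.17%. Sgta, Abi1 and Stk31 each gave overlapping windows with this word. The intervals count such windows as separate and are therefore too narrow. CCGGAAG, of ETS factors, had 20.5% against 11.9% of all, GGGCGG, of SP and KLF factors, 61.4% against 47.0%, and GCCATNTT, of YY1, 11.4% against 6.36%. In windows with 14 or more CpG the ETS word stood at 21.7% against 19.6%, and the SP and KLF word at 67.9% against 76.8%, which was the lower side. Below 14 CpG these words too were more frequent under members than in all windows, but the 26 member windows are few and are not matched for CpG. For NRF1 it was 3 of 26 (11.5%, 4.00% to 29.0%) against 0.909%, from Ncan and overlapping windows of Abi1. ETS had 4 of 26 (15.4%, 6.15% to 33.5%) against 4.09%, and SP and KLF 9 of 26 (34.6%, 19.4% to 53.8%) against 17.1%. CCAAT, of NFY, was at 26.5% (19.7% to 34.6%) against 38.1%, and the TATA box word TATAAA at 13.6% against 12.7%. GGGCGG can share letters with the reverse complement of CGCCCNCT.

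The limits of the rule run through a continuous range of peaks. Just inside 1 kb lay the peaks at Stx3 (997 bp from the end, score 21.0), Trim33 (993 bp, 13.9) and Fbxw13 (990 bp, 27.7). Just outside, each at 1001 bp, were those at Gas8 (51.7), Rhbdf2 (14.9) and Rraga (28.8). The members with the closest neighbours were at Fam3c (10012 bp away, score 32.1), Exosc4 (10033 bp, 16.7) and Uqcc3 (10048 bp, 6.60). Naxe (10.0) and Ttc24 (13.4), which are each other's neighbours at 9994 bp, and Fam104a (9968 bp, 69.8) fell just short. In the middle of the range, the nearest other Adnp peak was a median of 29.1 kb from a member (quartiles 16.8 and 61.2), against 33.1 kb (18.3 and 72.9) for solitary peaks elsewhere.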

How the data were processed

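Positions and the authors' score came from 2 deposited peak lists on mm10 (GRCm38), per the submitters' processing notes, which name Bowtie 1.0.0 and MACS2 without roles or settings. The kind of the deposited score is not stated. The deposited positions were read as BED and are printed counting from 1. Gene ends came from a RefSeq table of GRCm38.p6, leaving out genes that start below 3 Mb, where the coordinates are those of scaffolds and no peak is listed. Strands and promoter sequences came from the RefSeq promoter table, which matched 16457 of 20560 protein-coding genes on chromosomes 1 to 19. Overlap meant at least 1 bp. Ribosomal protein genes were taken without the Rps6k kinases and Rps19bp1, tRNA synthetases also by symbols with no final digit, and most other lists only with a digit after the prefix, narrower than first set down. The members, lists and words were chosen with earlier results of these data known. Named genes were the 10 highest and 5 lowest scores, the 5 widest and narrowest peaks, the 10 highest-scoring shared and HP1γ-overlapping members, up to 4 members a list and those at the limits of the rule. The gene with the highest score is left out here. Limits for a count of 0 use 3 counts. Intervals are 95% Wilson intervals, or binomial intervals for medians. The rule's code was tested on simulated data. Python 3.11.15, pandas 2.3.3, NumPy 2.4.6 and matplotlib 3.10.9 were used.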

Additional observations from a re-analysis of the deposited data

How the results depend on the processing

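The alternatives changed the window, the neighbour distance, the use of peak centres, the part of the list, the chromosomes and the HP1γ overlap. Of 45 planned values, 32 stayed within the interval of the value reported (or within 1.5 times, for counts) and 13 moved. A window of 500 bp gave 378 members, 70.5% at starts, 5.03% shared by 2 or more genes and a median width of 436 bp. A window of 2 kb gave 1064 members, 15.4% shared and 402 bp, and one of 5 kb gave 2193 members, 58.1% at starts, 26.0% shared and 393 bp. A wider window takes in more ends by construction. The higher-scoring part of the list gave a median width of 465.5 bp and a median score of 34.1, the second by its own selection. Starts were the more frequent nearest end under each alternative of window, neighbour distance, peak centre and part of the list, with shares of 58.1% to 70.5%; the start share was not run with chromosome X added. For the share of promoter windows with CGCCCNCT, 2 descriptions added after the data were seen moved, to 4.55% for the longer word and 23.1% in windows with fewer than 14 CpG. Symbol patterns as first set down, run after the data were seen, gave 15 of 207 traffic genes (7.25%), 13 of 237 ubiquitin ligases (5.49%), 16 of 376 solute carriers (4.26%) and 0 of 18 tRNA synthetases (0%), the last without Tars. No paired analysis was possible because each list pools its replicates. Depth is unknown, and small counts, such as the 19 overlaps with HP1γ, limit every split of the members.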
